A study of Mus musculus with 30 samples.

Results

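The 10 genes described here belong to the regulated secretory pathway and were followed in RNA-seq of mouse hypothalamus: the granin genes Vgf, Scg2, Scg3, Chga and Chgb, the convertase genes Pcsk1 and Pcsk2, the convertase chaperone gene Scg5, and the trimming and amidating enzyme genes Cpe and Pam. They were chosen by name and matched by Ensembl identifier, and all 10 of 10 were present and passed the filter on low counts in each of 3 count tables, which together list 55401 identifiers. All libraries came from wild-type C57BL/6 (B6) mice, and the labels used here state neither sex nor age. The first table holds fed mice (n = 3), mice fasted for 24 h (n = 3), mice fasted for 72 h with cold exposure at 18 C (n = 3) and mice fasted for 72 h without it (n = 3). In the second table mice had food again after fasting 72 h, and were taken 1 h (n = 3), 12 h (n = 3) or 1 week (n = 4) later. The third table holds mice refed for 1 month after a 72 h fast (n = 4) and their own fed control (n = 4). The question addressed was how transcripts of the peptide-making machinery differ between these feeding states.

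Neurons of the hypothalamus make peptides such as those from Pomc, Agrp, Npy and Cartpt from larger precursors. The precursors are sorted with acidic granin proteins into dense-core vesicles, cut at pairs of basic residues by the convertases encoded by Pcsk1 and Pcsk2, trimmed at the new end by carboxypeptidase E (Cpe) and, for many peptides, amidated by the enzyme that Pam encodes. Vgf and the secretogranins are themselves cut into bioactive peptides. In rodents, Vgf and Pcsk1 are known to respond to feeding state and leptin in some hypothalamic nuclei.

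Several of these genes are known targets of the cyclic AMP pathway through the cyclic AMP response element, CRE. RefSeq promoter windows on GRCm38.p6, which run from 250 bases before to 50 bases after the annotated start (300 bases), were matched by symbol for 8 of the 10 genes, and Vgf and Cpe were not matched. The full palindromic element TGACGTCA lay in 3 of these 8, Scg2, Chgb and Pcsk1, and in 2.03% of all 27025 genes with promoter windows. The stretches below show the element in its setting in these 3 genes: in capitals, it starts at -68 in Scg2, -72 in Chgb and -78 in Pcsk1. Scg2 is shown from -79 to -50 of the RefSeq start (chr1:79440076-79440105, minus strand), Chgb from -83 to -54 (chr2:132781559-132781588, plus strand) and Pcsk1 from -89 to -60 (chr13:75089768-75089797, plus strand). GENCODE M21 counts all 30 bases of the Scg2 and Chgb stretches as exon of a transcript that starts further upstream, and none of the Pcsk1 stretch.
Scg2: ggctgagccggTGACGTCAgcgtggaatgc
Chgb: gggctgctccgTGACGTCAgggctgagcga
Pcsk1: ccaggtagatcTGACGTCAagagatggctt

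The 5-base core TGACG, read on both strands and also contained in the full element, was present in 7 of the 8 matched genes and in 23.0% of all genes with promoter windows. Chga, shown for contrast from -55 to -26 (chr12:102554886-102554915, plus strand), holds the core in capitals without the full palindrome. The AP-1 motif TGANTCA was in none of the 8 and in 8.97% of all genes with windows. A match describes letters in the window and not binding.
Chga: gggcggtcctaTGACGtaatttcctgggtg

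The Pcsk1 promoter is given at more length because Pcsk1 passed the test in more comparisons than any other member. The 219 bases from -250 to -32 end at the last base before the first GENCODE exon (chr13:75089607-75089825, plus strand), with the full element in capitals.
Pcsk1 promoter: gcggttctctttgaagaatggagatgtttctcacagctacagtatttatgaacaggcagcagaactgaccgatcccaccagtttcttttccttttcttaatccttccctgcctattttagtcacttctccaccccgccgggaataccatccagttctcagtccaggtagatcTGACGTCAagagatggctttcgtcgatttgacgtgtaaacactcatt

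The 10 genes were abundant. Together they took between 0.294 and 0.360% of the counts of a library in the fasting table, between 0.288 and 0.352% in the refeeding table and between 0.460 and 0.547% in the 1-month table. Levels are CPM, counts scaled to a common library total on the TMM scale of each table, and the levels of genes are compared with each other per kilobase of exon. In fed libraries of the fasting table, Cpe had 463 ± 39.7 CPM per kilobase (SD, n = 3), ahead of Scg2 with 236 ± 31.0 and Scg5 with 152 ± 12.9. Scg3 followed at 72.5 ± 6.17 CPM per kilobase. Chgb (53.2 ± 8.64), Chga (45.4 ± 4.99) and Vgf (43.1 ± 4.89) lay within their spread of each other. Pcsk2 had 35.7 ± 3.48 CPM per kilobase and Pam 26.9 ± 2.91, and Pcsk1 was lowest at 13.7 ± 0.789. This order depends on the table: in the fed control of the 1-month table (n = 4), Cpe (633 ± 25.8), Scg2 (503 ± 43.2) and Pcsk1 (16.1 ± 1.75) kept their places, while Scg5 had 108 ± 6.30 and Vgf 108 ± 23.9. No source used here states whether introns were counted, and counted introns would raise values per kilobase of exon in genes with long introns.

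**Figure D1:**
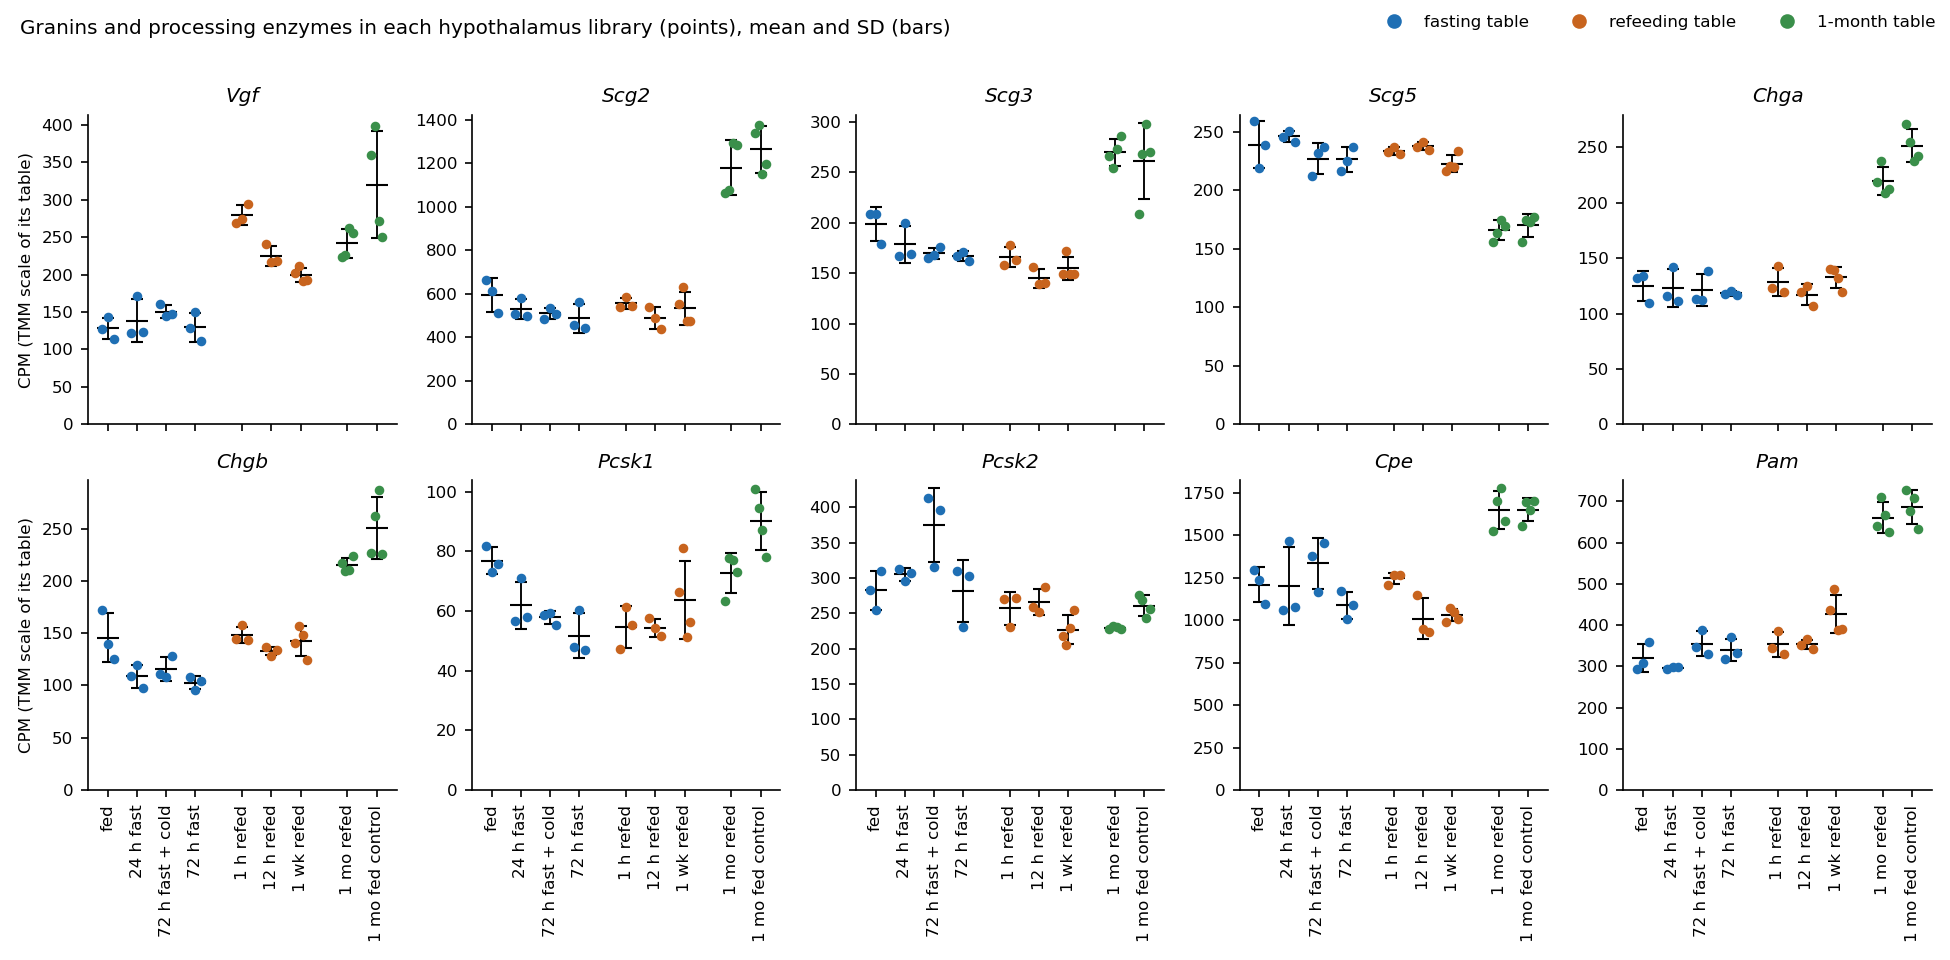
Level of each of the 10 genes (y axis, CPM on the TMM scale of its table, from 0) in the 9 groups (x axis). Points are libraries, coloured by count table, and bars are mean and SD. Pcsk1 and Chgb lie lower in all libraries fasted 72 h without cold than in fed ones, Chgb with cold overlaps the fed libraries, Vgf in the refeeding table is highest after 1 h, and levels of most genes step between tables, which were not compared by a test.

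Differences between groups were tested within a table with edgeR's quasi-likelihood test on counts, and a gene was called when its p, adjusted by Benjamini-Hochberg over all genes of the table, was below 0.05. Log2 fold changes are the first-named group over the second, ± SE. Total counts per library were 27111216 to 43397395 in the fasting table, 26115967 to 64269426 in the refeeding table and 9347942 to 13813956 in the 1-month table. Whether each library is a separate animal is not stated, so the p-values measure the spread between libraries, which may be technical. All 12 hypothalamic markers, Hcrt, Pmch, Avp, Oxt and Agrp among them, were detected in every library. Pituitary markers were near 0 in the fasting table (summed, between 0.364 and 6.44 CPM) and reached 163 CPM in 1 of the libraries refed for 1 week and 188 CPM in 1 refed for 1 month. Fed library 2 stood apart with 1502 CPM of skeletal muscle markers, against at most 45.3 CPM in the other libraries; without it 1 of the 10 genes was called after 72 h of fasting and 0 with cold, both against fed. In bulk tissue, fewer cells of a type and less RNA per cell cannot be told apart.

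**Figure D2:**
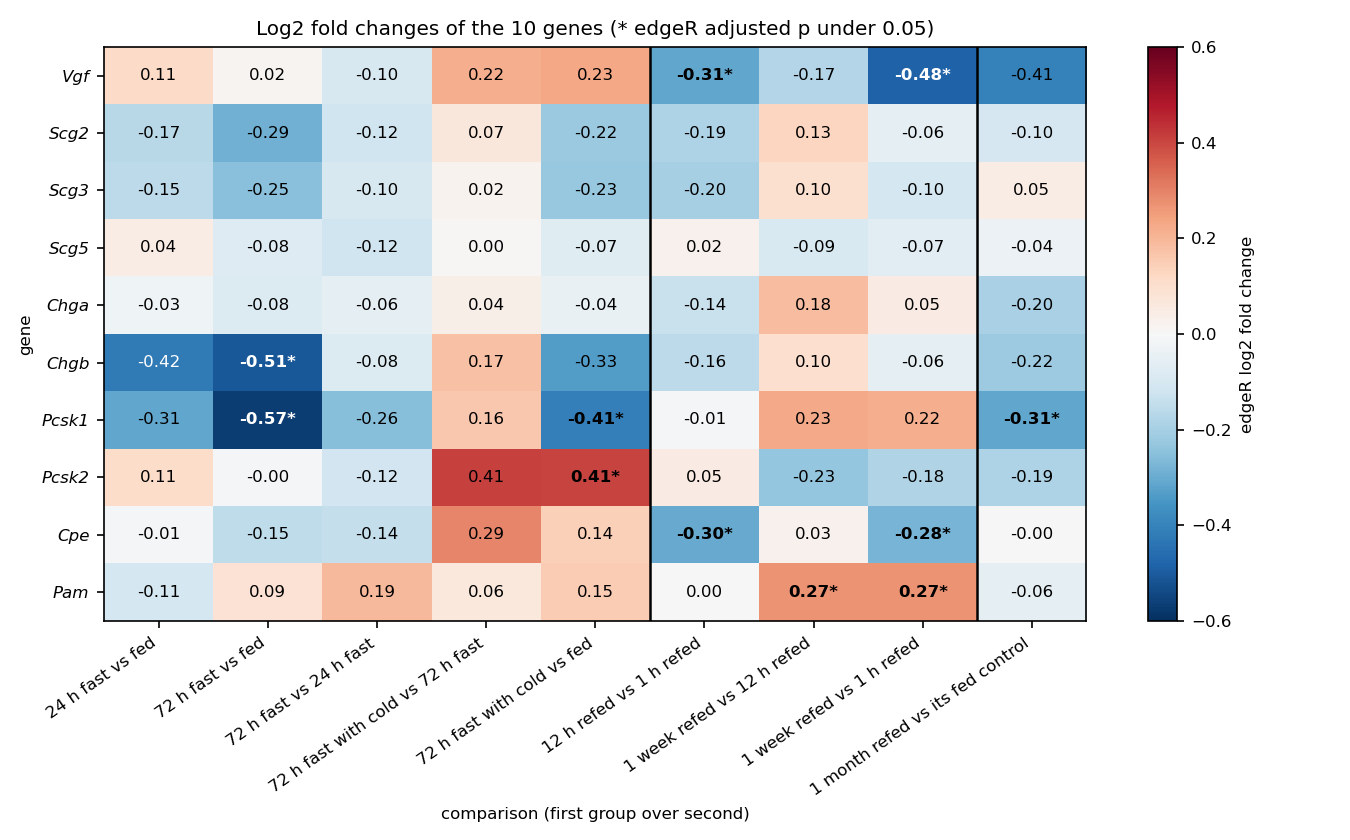
Log2 fold changes from edgeR (colour and number) of the 10 genes (rows) in the 9 comparisons (columns, first group over second), with an asterisk for adjusted p under 0.05. Vertical lines separate the fasting, refeeding and 1-month tables. Pcsk1 was called lower in 3 comparisons, and Vgf and Cpe were called lower in both comparisons with 1 h of refeeding.

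Pcsk1 and Chgb were lower after 72 h of fasting. Pcsk1, the convertase that makes the first cuts in many precursors (ENSMUSG00000021587, GRCm38 chromosome 13, 75089826 to 75134861), had 48.0, 60.5 and 46.8 CPM in the 72 h fasted libraries, against 81.7, 73.0 and 75.9 CPM in fed libraries. Each 72 h fasted library lay below each fed one, and Pcsk1 fell by 0.57 ± 0.12 on the log2 scale (-32.7%, edgeR adjusted p = 0.0131). Chgb, chromogranin B, a vesicle cargo granin (ENSMUSG00000027350, chromosome 2, 132781278 to 132795079), had 108, 95.8 and 104 CPM after 72 h, against 172, 140 and 126 CPM in fed libraries. The groups again did not overlap, and Chgb fell by 0.51 ± 0.12 (-29.6%, edgeR adjusted p = 0.0229). These were 2 of the 10 genes, both lower, where 15.1% of all 20408 genes tested were called (7.78% lower), and the median log2 fold change was -0.12 over the 10 and 0.01 over all genes.

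The other granins and enzymes did not pass edgeR's test at 72 h, but DESeq2 called Scg3 (adjusted p = 0.0422), and voom called Scg3 (0.00509) and Scg2 (0.0147), all lower. Without fed library 3 both were called too (Scg2 adjusted p = 0.035 and Scg3 0.0292). DESeq2 called 4707 and voom 7574 of all genes in this comparison. Scg3, which tethers granins to the vesicle membrane, had 167, 171 and 162 CPM, against 208, 208 and 179 CPM in fed libraries (-0.25 ± 0.10, edgeR adjusted p = 0.0831), without overlap of the groups. With it 3 of the 10 genes did not overlap, where 41.1% of all genes did not. Scg2, secretogranin II, the precursor of secretoneurin, had 459, 561 and 441 CPM, against 662, 611 and 509 CPM in fed libraries (-0.29 ± 0.13, edgeR adjusted p = 0.122), and 1 fasted library lay inside the fed range. Vgf differed by 0.02 ± 0.15, Pcsk2 by -0.00 ± 0.13, Chga by -0.08 ± 0.12 and Scg5 by -0.08 ± 0.09, with 95% intervals that lay between -0.34 and 0.33. Cpe differed by -0.15 ± 0.14 and Pam by 0.09 ± 0.10.

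The Pcsk1 call at 72 h was lost with 1 surrogate variable in the fit (log2 fold change -0.32, adjusted p = 0.357) and without 72 h library 3 (-0.52, adjusted p = 0.0564), in a range between 0.000277 and 0.357 over 14 alternatives. The Chgb call was lost with 1 surrogate variable (log2 fold change -0.25, adjusted p = 0.548), without 72 h library 2 (0.0685) or 3 (0.0674) and without fed library 1 (0.0887) or 2 (0.061), with log2 fold changes between -0.54 and -0.37 without a library, in a range between 0.00125 and 0.548.

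Pan-neuronal markers were lower too. Neuron markers, 10 of 12 of which passed the filter, summed to between 5561 and 6006 CPM after 72 h, against between 6460 and 7183 CPM in fed libraries, and 1 of the 10, Map2, was called lower. Per 1000 CPM of neuron markers, Pcsk1 was between 7.79 and 10.9 after 72 h, against between 11.01 and 11.4 in fed libraries, which still did not overlap, while Chgb overlapped. Scg5 and Pam, which overlapped in CPM and were not called (edgeR adjusted p = 0.553 and 0.576), lay higher on this scale without overlap. The neuron marker sum itself was lower after 72 h, which lifts any steady gene on this scale. No share over all genes is given on it, so these values are not read as a rise. Scg5 was between 37.5 and 40.5, against 33.9 and 36.1 in fed libraries. Pam was between 54.8 and 66.5, against 40.9 and 52.1. Striatal markers summed to between 436 and 520 CPM after 72 h, against between 687 and 1183 CPM in fed libraries, with 8 of 12 called lower. Markers of other tissues were also called lower: 7 of 10 for liver, 5 of 8 for muscle, 7 of 9 for blood and 6 of 10 for endothelium. Fed libraries 1, 2 and 3 had 33.5, 1502 and 33.6 CPM of muscle markers, against between 18.6 and 30.7 CPM after 72 h. They had 319, 1324 and 530 CPM of liver markers, against between 158 and 221 CPM. Fed library 2 thus held most of both. The part of all these markers in the Chgb and Pcsk1 differences was not tested.

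**Figure D3:**
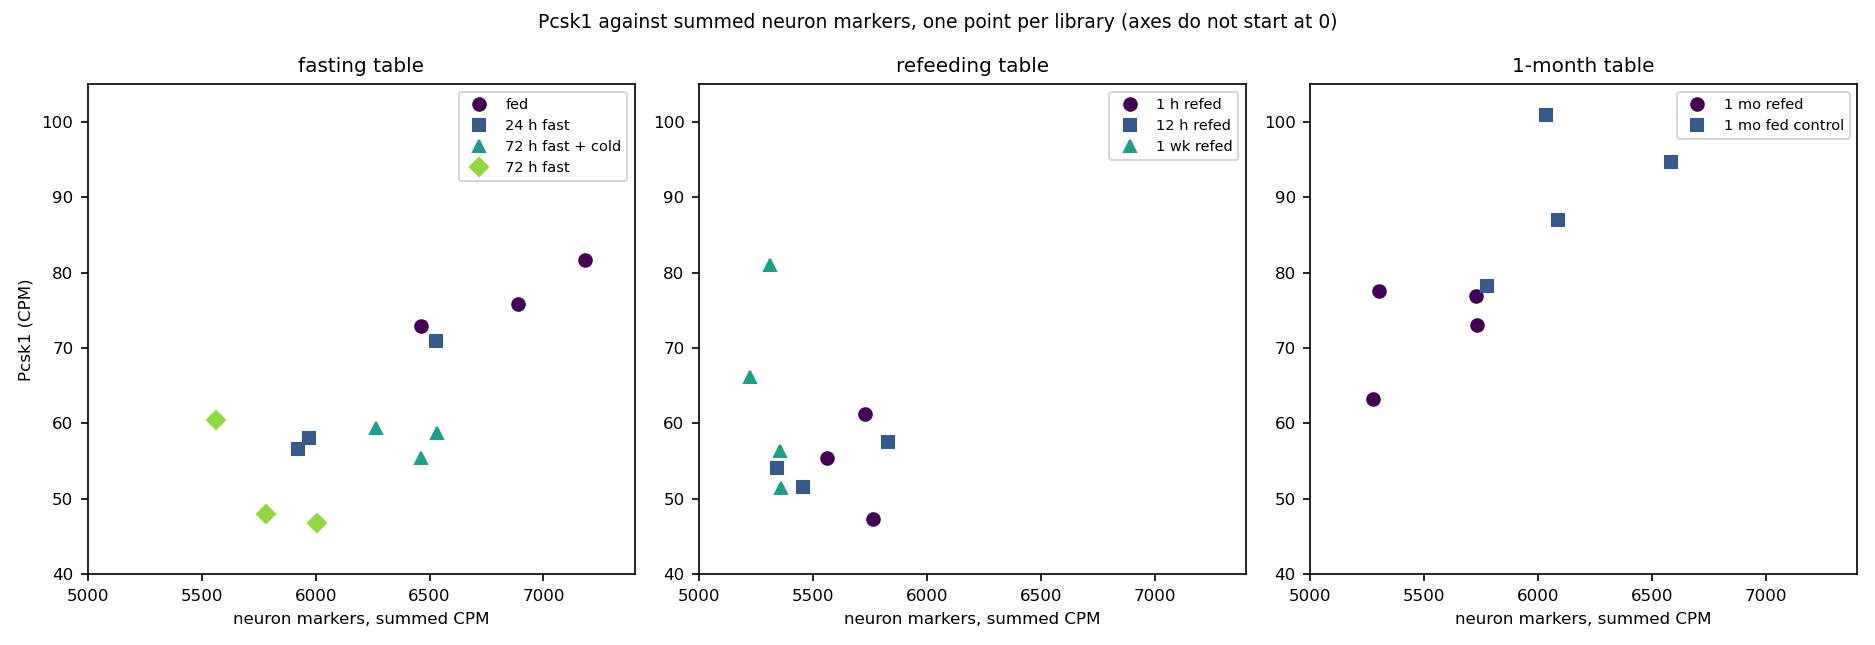
Pcsk1 level (y axis, CPM) against the summed level of neuron markers (x axis, CPM) in each library, by count table. In the fasting table the 72 h fasted libraries (46.8 to 60.5 CPM of Pcsk1) lie at lower values of both than the fed libraries (73.0 to 81.7 CPM), and in the 1-month table the refed libraries lie at lower neuron marker sums than their fed control.

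After 24 h of fasting none of the 10 genes was called, where 0.0343% of all genes were (7 of 20408). Libraries 1 and 3 of the 24 h group were far closer to each other than either was to library 2. Chgb had 109, 119 and 97.6 CPM, against 172, 140 and 126 CPM in fed libraries (-0.42 ± 0.12, edgeR adjusted p = 0.286), and Pcsk1 had 56.6, 71.0 and 58.0 CPM, against 81.7, 73.0 and 75.9 CPM (-0.31 ± 0.12, adjusted p = 0.381). In both genes the groups did not overlap, as in 13.2% of all genes, and these 2 had an unadjusted p under 0.05. Voom with quality weights called 4 of the 10 lower (Scg2, Scg3, Chgb and Pcsk1), and DESeq2 called 0, where voom called 3951 and DESeq2 240 of all genes. Pcsk1n differed by 0.21 ± 0.16 (edgeR adjusted p = 0.683). Between 72 h and 24 h of fasting 0 of the 10 genes were called by edgeR, DESeq2 or voom, where edgeR called 1.63% of all genes, and 1 had an unadjusted p under 0.05, Pcsk1 at -0.26 ± 0.12 (edgeR adjusted p = 0.20). Scg5 and Pam were the 2 genes whose groups did not overlap, as in 34.2% of all genes. Penk (-1.87 ± 0.35) and Tac1 (-1.39 ± 0.30) were the prohormone genes called lower at 72 h against 24 h, and 13 of 24 activity-induced genes were called lower, led by Arc (-1.57), Fos (-2.03), Nr4a1 (-1.46) and Junb (-1.82).

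Other genes of the pathway were mixed at 72 h. Of 33 secretory pathway partners tested, 1 was called higher and 3 lower, with a median log2 fold change of 0.05, against 0.01 over all genes. Syt4, a synaptotagmin of dense-core vesicles, averaged 115 ± 10.3 CPM after 72 h and 173 ± 24.7 CPM in fed libraries (SD, n = 3 each) and fell by 0.59 ± 0.16 (edgeR adjusted p = 0.0325). Ccdc186, which acts in dense-core vesicle maturation, fell by 0.42 ± 0.11 (edgeR adjusted p = 0.0258), and Cpd, a carboxypeptidase related to Cpe, fell by 0.30 ± 0.08 (adjusted p = 0.0319). Pcsk4, a convertase best known from germ cells, averaged 6.38 ± 0.947 CPM after 72 h and 3.15 ± 0.800 CPM in fed libraries and rose by 1.01 ± 0.24 (edgeR adjusted p = 0.0201). Pcsk1n, whose product proSAAS inhibits the Pcsk1 convertase, had 376, 395 and 339 CPM, against 349, 391 and 282 CPM in fed libraries (0.12 ± 0.16, adjusted p = 0.618).

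Of 27 prohormone genes tested, 3 were called lower at 72 h and 0 higher. These were Penk, Tac1 and Pdyn, which encode enkephalin, tachykinin and dynorphin precursors, and Penk and Tac1 are also on the striatal marker list. Penk averaged 54.3 ± 12.7 CPM after 72 h and 170 ± 78.4 CPM in fed libraries (-1.64 ± 0.35, edgeR adjusted p = 0.0183), Tac1 fell by 1.12 ± 0.30 and Pdyn by 0.99 ± 0.27. Activity-induced genes moved further: 15 of 24 were called lower and 0 higher, with a median log2 fold change of -1.01. Among them Fos, which encodes an AP-1 subunit, fell by 2.08 ± 0.28 and Arc, a synaptic immediate early gene, fell by 1.78 ± 0.21 (both edgeR adjusted p = 0.0050), and Homer1 and Fosl2 had log2 fold changes of -0.99 and -1.49.

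In the fasted mice kept in the cold, Pcsk2 was higher and Pcsk1 lower than in fed mice. Pcsk2, the second major convertase (ENSMUSG00000027419, chromosome 2, 143546156 to 143816285), had 413, 315 and 396 CPM in the 72 h fasted and cold-exposed libraries, against 284, 254 and 309 CPM in fed libraries. It rose by 0.41 ± 0.13 against fed (edgeR adjusted p = 0.0497), and the groups did not overlap. Pcsk1 had 58.8, 59.3 and 55.4 CPM with cold, against 81.7, 73.0 and 75.9 CPM in fed libraries, and fell by 0.41 ± 0.12 (edgeR adjusted p = 0.0311). These were 2 of the 10 genes, where 17.9% of all genes were called in this comparison. With Vgf (0.23 ± 0.15, and 0.64 with an adjusted p of 0.0177 with 1 surrogate variable) and Scg3 (-0.23 ± 0.10), 4 of the 10 did not overlap, as in 38.0% of all genes. Chgb overlapped and was not called (-0.33 ± 0.12, edgeR adjusted p = 0.0717). It was called lower with total counts (0.0428), by voom (0.00771) and without fed library 3 (0.0232). Scg3 was called lower by voom (0.00791) and without fed library 3 (0.0379), and Scg2 by voom (0.0349). Voom called 7414 of all genes here. Per 100 counts of Pcsk2 there were between 14.0 and 18.8 counts of Pcsk1 with cold, against between 24.5 and 28.8 in fed libraries. The ratio was also low without cold: it was 18.1, 24.1 and 18.9 in the libraries fasted for 24 h, all below the fed ones, and 15.5, 26.1 and 15.4 in those fasted for 72 h without cold, 1 of which lay inside the fed range. Per 100 counts of Pcsk1n, the gene of the Pcsk1 inhibitor, there were between 18.7 and 26.9 counts of Pcsk1 in fed libraries. There were between 14.0 and 17.2 after 24 h, between 15.7 and 17.7 with cold and between 12.8 and 15.3 after 72 h without it. No share over all genes is given for such ratios. Annotated antisense genes overlap 18.5% of the Pcsk2 span, and counts from them cannot be told apart from Pcsk2 where strand was not used.

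Neither call was stable. The Pcsk2 call against fed was lost with total counts as the only scaling (adjusted p = 0.0538), with 1 surrogate variable (0.487), with the 2 groups fitted alone (0.061) and without cold library 1 (0.154) or 3 (0.113) or either of fed libraries 1 and 2 (up to 0.177), in a range between 0.0143 and 0.487. The Pcsk1 call was lost with 1 surrogate variable (0.415), without cold library 1 (0.0964), 2 (0.0635) or 3 (0.0771) and without fed library 1 (0.103) or 2 (0.0643), in a range between 0.00736 and 0.415. Neuron markers summed to between 6266 and 6532 CPM with cold, against between 6460 and 7183 CPM in fed libraries, which overlapped. Thalamus and cortex markers summed to between 1048 and 1663 CPM with cold, against between 728 and 958 CPM in fed libraries, higher without overlap, with 1 of 10 called higher and 3 lower. Of other markers 8 of 12 for striatum, 7 of 10 for endothelium, 5 of 10 for mural cells, 7 of 10 for liver, 5 of 8 for muscle and 6 of 9 for blood were called lower. Fed library 2 held most of the liver and muscle markers of the fed group. The part of all these markers in the Pcsk1 and Pcsk2 calls was not tested.

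Against 72 h of fasting without cold, 0 of the 10 genes were called, where 0.0% of all 20408 genes were (1296 had an unadjusted p under 0.05, and DESeq2 called 57 and voom 5). Pcsk2 had 413, 315 and 396 CPM with cold, against 310, 231 and 303 CPM without it (0.41 ± 0.13, edgeR adjusted p = 0.598), and was the 1 gene of the 10 with an unadjusted p under 0.05 and the 1 without overlap, as in 15.5% of all genes. Cpe had 1378, 1168 and 1458 CPM with cold, against 1169, 1008 and 1087 CPM without it (0.29 ± 0.14, adjusted p = 0.799). Vgf had 160, 144 and 147 CPM with cold, against 128, 150 and 111 CPM without it (0.22 ± 0.15, adjusted p = 0.913). DESeq2 and voom called 0 of the 10.

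Of the 33 partners, 6 were called higher and 2 lower in cold-exposed fasted mice against fed. Ptprn2, a dense-core vesicle membrane protein also called phogrin, averaged 613 ± 67.5 CPM with cold and 382 ± 95.4 CPM in fed libraries and rose by 0.68 ± 0.18 (edgeR adjusted p = 0.0243). Hid1, which acts in dense-core vesicle formation, rose by 0.25 ± 0.08 (edgeR adjusted p = 0.0432), and Rnpep, an aminopeptidase, rose by 0.55 ± 0.13 (adjusted p = 0.0149). Pcsk4 rose by 0.76 ± 0.24, and Cpd and Ccdc186 fell by 0.32 ± 0.08 and by 0.40 ± 0.11 (edgeR adjusted p = 0.0432, 0.0221 and 0.0253). Among 27 prohormone genes 4 were called lower and 0 higher: Pomc, the melanocortin precursor gene, averaged 2.31 ± 0.727 CPM with cold and 6.11 ± 0.752 CPM in fed libraries (-1.41 ± 0.28, edgeR adjusted p = 0.0089), and Penk, Tac1 and Pdyn were lower by log2 fold changes of -1.61, -1.23 and -1.05. Of the activity-induced genes 14 of 24 were called lower, led by Arc (-1.84 ± 0.21), Fosl2 (-1.27), Btg2 (-0.98) and Homer1 (-0.83).

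Of the 3 groups of the refeeding table, Vgf was highest after 1 h. That table holds no fasted and no fed group, so whether Vgf, Cpe or other genes changed within 1 h of refeeding cannot be told. Vgf (ENSMUSG00000037428, chromosome 5, 137026392 to 137033351) had 268, 275 and 294 CPM after 1 h, 240, 217 and 218 CPM after 12 h, and 203, 211, 191 and 193 CPM after 1 week. The 3 groups did not overlap. Vgf fell by 0.31 ± 0.07 after 12 h against 1 h (-19.3%, edgeR adjusted p = 0.00841) and by 0.48 ± 0.06 after 1 week against 1 h (-28.5%, adjusted p = 0.000111). The difference between 1 week and 12 h was -0.17 ± 0.06 (adjusted p = 0.087). Both Vgf calls against 1 h held in every alternative tried, 14 and 15 in number, with adjusted p up to 0.0482 and 0.00129. The authors' deposited table gives 1 h over 12 h a log2 fold change of 0.298 for Vgf and 0.292 for Cpe, each with an adjusted p of 1. There 429 of 18257 genes had an adjusted p below 0.05, against 2834 called here, so the adjusted values are not on a like footing.

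Cpe, which removes the basic residues left after convertase cleavage (ENSMUSG00000037852, chromosome 8, 64592542 to 64693054), was also highest at 1 h. It had 1207, 1264 and 1268 CPM after 1 h, 1150, 949 and 930 CPM after 12 h, and 991, 1069, 1046 and 1010 CPM after 1 week. Every library of the later groups lay below those of 1 h. Cpe fell by 0.30 ± 0.08 after 12 h against 1 h (edgeR adjusted p = 0.0221) and by 0.28 ± 0.08 after 1 week against 1 h (adjusted p = 0.0137). Vgf and Cpe were the 2 of 10 genes called after 12 h, both lower, where 14.2% of all 19932 genes were called (7.14% lower). With Scg3 (-0.20 ± 0.08, edgeR adjusted p = 0.0946) and Chgb (-0.16 ± 0.08, adjusted p = 0.20), 4 of the 10 did not overlap, as in 31.9% of all genes. The Cpe call after 12 h was lost without 12 h library 2 (0.094) or 3 (0.115) or 1 h library 2 (0.0722) or 3 (0.0585), in a range between 0.00143 and 0.115. The call after 1 week against 1 h was lost without 1 h library 2 (0.0503) or 3 (0.0556), in a range between 0.00342 and 0.0556.

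Pam, which amidates peptides at the carboxyl end (ENSMUSG00000026335, chromosome 1, 97795114 to 98095646), was higher after 1 week. It had 344, 386 and 329 CPM after 1 h, 352, 365 and 342 CPM after 12 h, and 437, 487, 389 and 391 CPM after 1 week, above every earlier library. Pam rose by 0.27 ± 0.08 against 12 h (edgeR adjusted p = 0.0473) and by 0.27 ± 0.08 against 1 h (adjusted p = 0.0254). It was the 1 gene of 10 called against 12 h, where 11.6% of all genes were called (6.56% higher), and 1 of 3 called against 1 h, where 26.9% were. Vgf, Scg5 and Pam were the 3 of 10 without overlap between 1 week and 12 h, as in 24.0% of all genes, and Vgf, Cpe and Pam the 3 between 1 week and 1 h, as in 36.9%. Other genes overlap 9.67% of the Pam span. The authors' deposited table gives Pam a log2 fold change of 0.271 for 1 week over 12 h, with an adjusted p of 1, where 253 of 18559 genes were below 0.05, against 2304 called here. Against 12 h the call was lost with total counts only (0.0616), with the 2 groups alone (0.0638) and without any 12 h library (0.0616, 0.0884 and 0.191) or 1 week library 1 (0.114) or 2 (0.112), in a range between 0.00361 and 0.191. Against 1 h it was lost without 1 h library 1 (0.0927) or 3 (0.129) or 1 week library 1 (0.0631) or 2 (0.0683), in a range between 0.000583 and 0.129.

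The convertases and the remaining granins did not pass edgeR's test as fitted here during refeeding, though some did in alternatives. Pcsk2 was called lower after 1 week against 12 h by voom (adjusted p = 0.0367), with 1 surrogate variable (0.0168), with a replicate block (0.0146) and without 1 week library 4 (0.0327). Against 1 h it was called lower with 1 surrogate variable (0.0163), with a replicate block (0.0215) and without 1 h library 2 (0.046) or 1 week library 4 (0.0441). Over all genes 1 surrogate variable called 3514 against 12 h and 6557 against 1 h, and the block 2709 and 4717. With 1 surrogate variable Pcsk1 was called higher after 1 week against 1 h (0.0082), and voom called Scg3 lower after 12 h against 1 h (0.0285), as edgeR did without 12 h library 1 (0.0294). Pcsk1 had 47.4, 61.3 and 55.4 CPM after 1 h, 57.6, 54.1 and 51.6 CPM after 12 h, and 66.2, 81.1, 51.4 and 56.3 CPM after 1 week (0.22 ± 0.15 for 1 week against 1 h, edgeR adjusted p = 0.298). The spread at 1 week was wide, and the 3 groups overlapped. Pcsk2 differed by -0.18 ± 0.08 after 1 week against 1 h (adjusted p = 0.116) and by -0.23 ± 0.08 against 12 h (0.0813). Scg2, Scg3, Scg5, Chga and Chgb differed by between -0.10 and 0.05 after 1 week against 1 h. Scg5 was the steadiest, with 232, 237 and 231 CPM after 1 h, 237, 241 and 234 CPM after 12 h, and 217, 221, 220 and 233 CPM after 1 week.

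Among the partners, Pcsk1n was also highest after 1 h. It had 590, 598 and 518 CPM after 1 h, 498, 534 and 447 CPM after 12 h, and 409, 404, 387 and 362 CPM after 1 week, and it fell by 0.54 ± 0.08 after 1 week against 1 h (edgeR adjusted p = 0.000175). The difference between 12 h and 1 h was -0.21 ± 0.08 (adjusted p = 0.105). Ptprn, a dense-core vesicle membrane protein also called IA-2, averaged 198 ± 6.66 CPM after 1 week (SD, n = 4) and 276 ± 16.4 CPM after 1 h (n = 3) and fell by 0.47 ± 0.06 (edgeR adjusted p = 7.81e-05). Furin, the convertase of the constitutive pathway, fell by 0.44 ± 0.07, and Kif1a, a motor that carries dense-core vesicles, fell by 0.31 ± 0.06. Rab27b, a vesicle GTPase, rose by 0.36 ± 0.06 and Cyb561, the vesicle cytochrome that regenerates the cofactor of Pam, rose by 0.37 ± 0.07. Over 33 partners tested, 5 were called higher and 10 lower after 1 week against 1 h, with a median of 0.06, against 0.00 over all genes. After 12 h against 1 h 2 were higher and 6 lower, with Rab27b at 0.38 ± 0.06, Rab26 at -0.50 ± 0.10 and Ptprn, Hid1, Rab3a and Pcsk7 between -0.31 and -0.27. After 1 week against 12 h 4 were higher and 2 lower, with Cyb561 (0.53 ± 0.07), Ctsl (0.63 ± 0.11), Sv2a (0.35 ± 0.07) and Atp6ap1 (0.22 ± 0.07) the higher and Pcsk1n (-0.34 ± 0.08) and Syt7 (-0.39 ± 0.10) the lower.

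Substrates were mixed over refeeding. Npy, the orexigenic peptide gene, averaged 8.59 ± 1.07 CPM after 1 week and 30.1 ± 2.32 CPM after 1 h and fell by 1.81 ± 0.11 (edgeR adjusted p = 2.91e-07). Cartpt, which encodes an anorexigenic peptide, averaged 31.6 ± 3.10 CPM after 1 week and 20.1 ± 0.368 CPM after 1 h and rose by 0.65 ± 0.08 (edgeR adjusted p = 6.36e-05). Of 26 prohormone genes tested, 2 were called higher and 4 lower after 1 week against 1 h, with Nts at 0.56 ± 0.11 and Crh at -0.59 ± 0.13 among them. After 12 h against 1 h Cartpt (0.62 ± 0.08) and Agrp (0.49 ± 0.12) were called higher and Npy (-0.47 ± 0.11) lower, and after 1 week against 12 h Npy alone was called, at -1.33 ± 0.11. Of the 24 activity-induced genes 10 were called lower after 12 h and 17 after 1 week, both against 1 h, and 0 were called higher. Fos fell by 1.08 ± 0.10 after 1 week against 1 h, and Per1, Junb and Dusp1 had log2 fold changes of -1.04, -1.64 and -0.89. After 12 h Per1, Fos, Junb and Fosb had -0.97, -0.66, -0.92 and -1.05 against 1 h. After 1 week against 12 h 6 of 24 were called lower, led by Junb (-0.71), Nr4a3 (-0.78), Btg2 (-0.42) and Fos (-0.42).

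Pituitary and neuron markers were checked beside these results. Pituitary markers summed to 60.3, 24.8 and 3.20 CPM after 1 h, 1.96, 64.4 and 2.83 CPM after 12 h, and 6.37, 34.1, 163 and 26.0 CPM after 1 week. In the same order of libraries Vgf had 268, 275 and 294 CPM, then 240, 217 and 218 CPM, then 203, 211, 191 and 193 CPM. The part of pituitary RNA in the Vgf values was not tested. Neuron markers summed to between 5563 and 5762 CPM after 1 h, 5344 and 5829 CPM after 12 h, and 5223 and 5358 CPM after 1 week. Per 1000 CPM of neuron markers, Vgf was between 46.6 and 52.8 after 1 h, 39.9 and 41.2 after 12 h, and 35.6 and 39.7 after 1 week, again without overlap. On the same scale Cpe was between 209 and 228 after 1 h, 170 and 197 after 12 h, and 189 and 201 after 1 week, and Pam between 59.1 and 67.4, 60.3 and 68.4, and 72.6 and 91.8. Markers of other cells were called higher after 1 week against 1 h, 7 of 9 for microglia, 7 of 10 for oligodendrocytes (3 were lower) and 6 of 9 for blood. Thalamus and cortex markers were called lower for 6 of 10 and higher for 1 in the same comparison. After 12 h against 1 h astrocyte markers were called lower for 4 of 10, with sums between 2919 and 3520 CPM after 12 h, against between 3602 and 3726 CPM after 1 h, without overlap. The part of these markers in the calls was not tested. The 1 week libraries were also sequenced more deeply (46909406 to 64269426 counts) than the others of the table (26115967 to 34051433 counts), and whether depth bears on these values was not tested.

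After 1 month of refeeding Pcsk1 was lower than in the fed control. It had 63.2, 77.6, 77.0 and 73.1 CPM in refed libraries, against 101, 94.7, 87.0 and 78.2 CPM in the fed control, without overlap, and it fell by 0.31 ± 0.09 (-19.4%, edgeR adjusted p = 0.0352). It was the 1 gene of 10 called, where 10.1% of all 14867 genes were (3.76% lower). In the authors' deposited table, which gives the fed control over 1 month refed, the log2 fold change of Pcsk1 was 0.307 with an adjusted p of 1. There 494 of 18616 genes were below 0.05, against 1506 called here. The call was lost with 1 surrogate variable (adjusted p = 0.0628), without fed control library 2 (0.0996) or 3 (0.0986) and without refed library 1 (0.111), 2 (0.053), 4 (0.057) or 5 (0.0732), in a range between 0.00509 and 0.224 over 16 alternatives, the highest with the replicate number as a block.

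Vgf, Chga, Chgb and Pcsk2 had lower means that missed the threshold. Vgf had 224, 227, 262 and 255 CPM in refed libraries, against 360, 399, 272 and 250 CPM in the fed control (-0.41 ± 0.13, edgeR adjusted p = 0.0758). The fed control libraries of Vgf were spread widely, and the groups overlapped. Chga had 219, 238, 209 and 213 CPM, against 271, 255, 238 and 242 CPM (-0.20 ± 0.07, adjusted p = 0.0784). Chgb had 217, 210, 211 and 224 CPM, against 227, 262, 287 and 226 CPM (-0.22 ± 0.08, adjusted p = 0.0858). Pcsk2 had 227, 232, 231 and 228 CPM, against 277, 269, 243 and 256 CPM (-0.19 ± 0.06, adjusted p = 0.0726). With Pcsk1, Chga, Chgb and Pcsk2 made 4 of the 10 genes whose groups did not overlap, as in 15.7% of all genes. DESeq2 called 4 of the 10 lower (Vgf, Chga, Pcsk1 and Pcsk2), where it called 1988 of all genes. Cpe differed by -0.00 ± 0.07, Scg3 by 0.05 ± 0.09, Scg2 by -0.10 ± 0.09, Scg5 by -0.04 ± 0.07 and Pam by -0.06 ± 0.07. Pcsk1n differed by -0.09 ± 0.07 (edgeR adjusted p = 0.415), and per 100 counts of it there were between 7.66 and 9.16 counts of Pcsk1 in refed libraries, against between 9.32 and 11.5 in the fed control.

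The neuron markers were lower here too. They summed to between 5273 and 5732 CPM in 1-month refed libraries, against between 5777 and 6584 CPM in the fed control, with 3 of 12 called lower (Nefm, Syn1 and Nefl). Per 1000 CPM of neuron markers the groups overlapped for each of the 10 genes, Pcsk1 included, and the part of the markers in the Pcsk1 call was not tested. Endothelial markers were called higher for 6 of 10, and oligodendrocyte and microglia markers for 3 of 10 each. Of 34 partners tested 1 was called higher, Cpd at 0.23 ± 0.07, and 4 lower. The lower ones were the vesicle genes Syt7 (-0.36 ± 0.10), Sv2a (-0.29 ± 0.09), Rph3a (-0.31 ± 0.09) and Baiap3 (-0.26 ± 0.08), with edgeR adjusted p between 0.0336 and 0.0458. Of 27 prohormone genes 1 was called in each direction: Npy, which averaged 33.0 ± 2.89 CPM in refed libraries and 22.4 ± 6.59 CPM in the fed control, rose by 0.56 ± 0.16, and Gal, the galanin gene, fell by 0.45 ± 0.09. Of the activity-induced genes 1 of 24 was called higher, Ier2 at 0.84 ± 0.25, and 0 lower.

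Across all 30 libraries, after the mean of each table was subtracted from log2(CPM + 1), Scg2 and Pcsk1 were the most alike of the 45 pairs. Their Pearson r was 0.77 and Spearman's rho 0.74 (permutation within tables, adjusted p = 0.00045 and 0.00135 over 45 pairs), and r was 0.67 without the 2 libraries farthest from the median of Scg2. Within the fasting, refeeding and 1-month tables r was 0.85, 0.72 and 0.65. Scg3 and Chgb followed with r = 0.66 and rho = 0.67 (permutation adjusted p = 0.00113 and 0.0027, r = 0.71 without 2 libraries), and Chgb and Pcsk1 with r = 0.60 and rho = 0.50 (permutation adjusted p = 0.0123 and 0.0332, r = 0.52 without 2 libraries). Pcsk2 ran apart from Pcsk1, with r = -0.26 and rho = -0.22 (permutation adjusted p = 0.356 and 0.438). That pair had r = -0.79 in the refeeding table and 0.87 in the 1-month table, so the pooled value hides opposite signs. Scg5 and Pam had the lowest r, -0.45 (rho = -0.48, permutation adjusted p = 0.0359 and 0.0332, r = -0.49 without 2 libraries). These values include differences between the groups, and the genes share libraries and depth. The permutations mixed libraries of different groups within a table, so their p-values do not measure likeness apart from group differences.

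**Figure D4:**
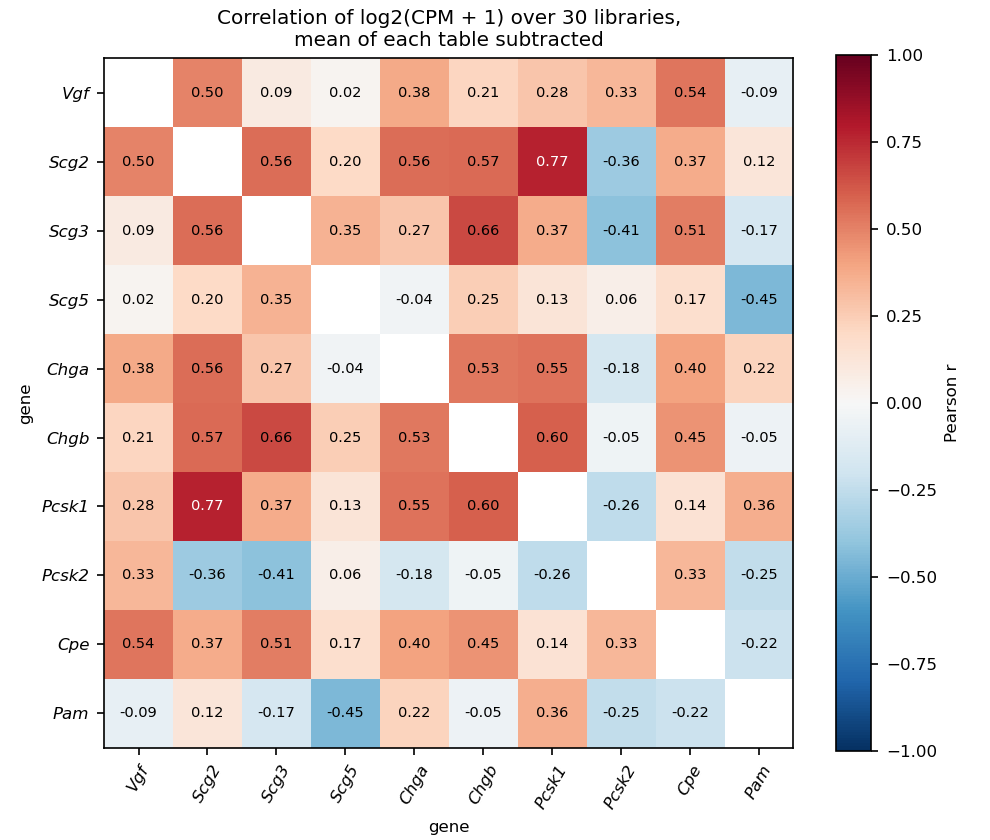
Pearson r of log2(CPM + 1) between each pair of the 10 genes (both axes, colour from -1 to 1) over 30 libraries after the mean of each count table was subtracted. Scg2 with Pcsk1 (0.77) and Scg3 with Chgb (0.66) are highest, and Scg5 with Pam (-0.45) is lowest.

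Among 10967 genes with at least 5 CPM on average in every table, those closest to Pcsk1 by the same measure were Epm2aip1 (r = 0.87), Cbx5 (0.83) and Prkar1a (0.82), over 30 libraries. Each of these genes lay closer to Pcsk1 than Scg2 did (r = 0.77). Those closest to Vgf were Scaf1 (0.87), Ccdc6 (0.86) and Cep170b (0.83), and those closest to Cpe were Ap2a2 (0.88), Ogfrl1 (0.85) and Rhob (0.85). These likenesses are descriptions without a test.

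Levels of the same gene in fed mice stepped between the fasting and 1-month tables. Genes with short introns were lower in the fasting table: the ratio of mean CPM, fasting over 1-month table, was 0.40 for Vgf, 0.47 for Scg2, 0.50 for Chga and 0.58 for Chgb, whose spans are between 2.17 and 5.04 times their exon length. It was 1.40 for Scg5 and 1.08 for Pcsk2, whose spans are 33.6 and 34.2 times their exon length, while Cpe (0.73, 38.5 times) and Pam (0.47, 25.3 times) lay below 1. Levels were therefore not compared across tables.

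**Figure D5:**
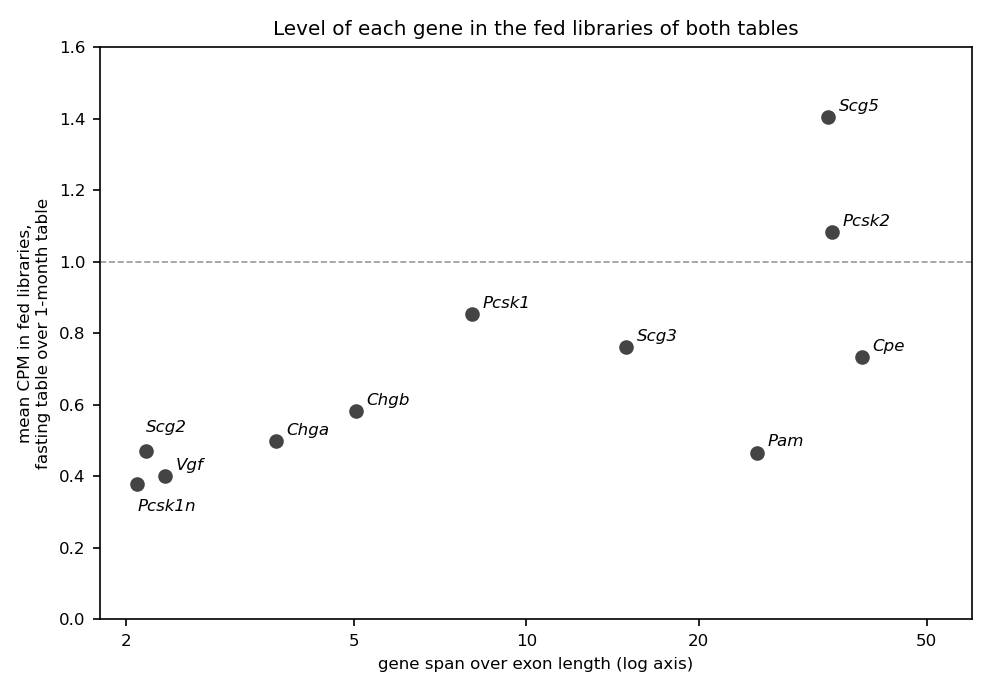
Ratio of mean CPM in fed libraries, fasting table over 1-month table (y axis, from 0, dashed line at 1), against gene span over exon length (x axis, log scale), for the 10 genes and Pcsk1n. Genes with short spans relative to exons, such as Vgf at 0.40, lie low, and Scg5 lies highest at 1.40.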

How the data were processed

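Total RNA of hypothalamus was extracted with Qiagen RNeasy and made into directional NEBNext Ultra II libraries after ribosomal RNA depletion, per the labels' protocols. Reads were aligned to mm10 with HISAT2, counted with featureCounts and compared with edgeR, per the submitters' processing notes, without versions. Raw counts per gene came as 3 deposited tables, beside the authors' tables of log2 fold changes and p-values; 2 further columns of per-sample counts were not used. Strand and span settings of the counting are not given in the sources used here.

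All groups of a table were fitted together with edgeR 4.0.16 in R 4.3.3 (filterByExpr, TMM, robust quasi-likelihood, Benjamini-Hochberg over the table). CPM are on the TMM scale. Alternatives were RLE or total-count scaling, no filter, DESeq2 1.42.0, limma 3.58.1 voom with quality weights, 1 surrogate variable (sva 3.50.0), a replicate block, the 2 groups alone, and leaving out each library. The fit was tested on simulated data with known changes. Of simulated 1.5-fold changes it called 22 to 32% in the comparisons of the fasting table and 54 to 70% in the others. A missing call alone therefore does not exclude a difference of this size. For the members the 95% intervals of the log2 fold changes say more. After 72 h against fed those of all uncalled members exclude a 1.5-fold change. Among them were Vgf (-0.30 to 0.33), Cpe (-0.46 to 0.16) and Scg2 (-0.56 to -0.02). Some intervals in other comparisons do not exclude it. Examples are Chgb after 24 h against fed (-0.69 to -0.16) and Pcsk2 for cold against 72 h (0.13 to 0.70). The 36 pairs of libraries within groups differed by more than sampling noise (chi-square per degree of freedom 3.16 to 105). In the fasting table, libraries 1 and 3 fasted for 24 h differed least by far (3.48). They differed from library 2 of that group by 92.6 and 76.9, and why was not tested.

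The members and gene lists were chosen with earlier results of these data known. The 10 members are named in every comparison, and of partners up to 6, of prohormone and activity-induced genes up to 4 each, the called ones by smallest adjusted p. Per-neuron-marker values and pair correlations (100000 permutations within tables) were chosen after seeing the data. Overlap per 1000 CPM of neuron markers is given for the members only, without the share over all genes.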

Additional observations from a re-analysis of the deposited data

Results flagged for a closer look

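In 30 tests of single libraries in groups of 4, 1 library stood apart: Scg3 in the libraries refed for 1 week, whose highest value was 172 CPM, with the others between 149 and 149.4 CPM. Chance flags about 1 in 20 such groups.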

How the results depend on the processing

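No member's called direction turned round in the alternatives run. The number of the 10 genes called after 24 h was 0 with edgeR and 4 with voom; after 72 h against fed it was 2, with DESeq2 3, voom 4 and with 1 surrogate variable 0; with cold against fed it was 2, with voom 5, with 1 surrogate variable 1, which was Vgf and neither Pcsk1 nor Pcsk2, and with the 2 groups alone 1. After 1 week against 12 h it was 1, with total counts 0, voom 2, 1 surrogate variable 3 and the 2 groups alone 0, and against 1 h it was 3, with 1 surrogate variable 5. After 1 month it was 1, with DESeq2 4, voom 2 and 1 surrogate variable 0. The cause was not tested. Leaving out each library gave between 0 and 4 after 72 h against fed, 0 and 4 with cold against fed, 1 and 3 after 12 h, 0 and 2 after 1 week against 12 h, 1 and 4 against 1 h, and 0 and 5 after 1 month. Without fed control library 5 it was 5 and without library 4 it was 2. Both comparisons with 0 calls among fasted groups stayed at 0.

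With a replicate block the count was 3 after 1 week against 12 h, with Pcsk2 and Chga added (adjusted p = 0.0146 and 0.0389). It was 4 after 1 week against 1 h, with Pcsk2 added (0.0215), and 0 after 1 month (Pcsk1 adjusted p = 0.224). Over all genes it was 408 in place of 1506 after 1 month. Refed library 1 and fed control library 3 have no counterpart of the same number, so this block leaves the 1-month comparison to the other libraries. In no comparison did every same-numbered pair correlate above 0.1, and at most 2 of 3 pairs correlated best with their own number. Single pairs reached 0.49 for 24 h against fed and 0.40 for 1 week against 1 h. With so few pairs, whether the numbers pair some of the libraries cannot be told.

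Over all genes, edgeR called 7 after 24 h, against 102 with 1 surrogate variable, 240 with DESeq2, 13 without the filter, 16 with total counts and 3951 with voom. After 72 h against fed it called 3072, against 4, 4707 and 7574 with 1 surrogate variable, DESeq2 and voom, and after 72 h against 24 h 333, against 8, 1776 and 2910. For cold against 72 h these were 75, 57 and 5 in place of 0, and for cold against fed 303 and 7414 with 1 surrogate variable and voom in place of 3661. After 1 week against 12 h 1 surrogate variable called 3514 and voom 3940 in place of 2304. With total counts the split was 1912 higher and 1122 lower after 72 h against fed (1485 and 1587 with TMM), 1538 and 2434 with cold against fed (1791 and 1870), and 1076 and 395 after 1 month (947 and 559). Leaving out a library moved these counts to between 3 and 56 after 24 h, 434 and 5446 after 72 h against fed, 0 and 328 against 24 h, 0 and 5 for cold against 72 h, 932 and 5507 for cold against fed, 1314 and 3537 after 12 h, 589 and 3050 after 1 week against 12 h, 3606 and 4979 against 1 h, and 775 and 2856 after 1 month, so the background shares in the text are not fixed either. With total counts the median of all genes was -0.10 for cold against 72 h.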
